A study of Rattus norvegicus with 38 samples.

Results

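Cigarette smoke exposure was accompanied by low lung levels of 10 genes that belong to no single pathway: Dlk1, Slc6a15, Slc15a2, Mlc1, Syndig1, Tent5b, Nxpe1, Mcf2l, Prune2 and Pcp4l1. They were chosen among 14217 measured genes because their levels were much lower in smoke-exposed than in sham-exposed lungs of at least 1 rat line and because they stood outside the pathways usually followed in smoke exposure. The change with smoke and the difference of that change between lines are therefore given here as a description, with no test. Lung RNA came from female N:NIH rats, 34 weeks old, of lines bred for high intrinsic running capacity (HCR, high capacity runner) or low capacity (LCR, low capacity runner). The groups were 12 HCR smoke, 7 HCR sham, 12 LCR smoke and 7 LCR sham animals, where sham animals breathed room air and smoke animals cigarette smoke, 5 days a week for 12 weeks. Each animal had 1 Affymetrix Rat Genome 230 2.0 array, made from about 25 mg of lung. A piece of lung holds many cell types, so fewer cells of a type and less RNA per cell cannot be told apart.

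Values are the deposited linear intensities, and changes are differences of mean log2(intensity + 16), a scale that understates the change of dim genes. Cyp1a1, the smoke-inducible cytochrome P450, averaged 3607 in HCR smoke and 8.72 in HCR sham lungs, and 4364 in LCR smoke and 18.1 in LCR sham lungs. The lung epithelial genes Sftpc and Scgb1a1 averaged over 10000 in every group. Both lay near the highest intensity of any probe set, 11558, where changes may be understated. In all, 6 arrays carried high heart or skeletal muscle markers, namely HCR smoke 0410, 0414, 0415 and 0417, HCR sham 0433 and LCR sham 0442. An LCR smoke array that is not among them had a heart muscle marker mean of 0.77 against the mean of all arrays. The median of its group was -0.87. Each group holds a separate block of the numbers in the sample titles, and number order cannot be told apart from group.

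As background, the 10 genes act in several ways. Dlk1 encodes a membrane protein related to the Notch ligands that lacks the domain by which classical ligands activate the receptor. Slc6a15 and Slc15a2 carry neutral amino acids and short peptides into cells. Mlc1 and Syndig1 encode membrane proteins known best from astrocytes and synapses. Tent5b is a noncanonical poly(A) polymerase, and Nxpe1 belongs to a family related to neurexophilins. Mcf2l is a guanine nucleotide exchange factor, Prune2 holds a BNIP2 and CRAL-TRIO domain, and Pcp4l1 is a small relative of the calmodulin-binding protein Pcp4.

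All 10 genes had lower means in smoke than in sham lungs of both lines. In HCR, 8 of the 10 were lower by at least 1 on the log2 scale, where 0.176% of all genes were, and in LCR 5 of the 10 were, where 0.239% of all genes were. The median change of the 10 was -1.27 in HCR and -0.98 in LCR, against medians of -0.03 and -0.005 over all genes. By the brightest probe set per gene, every smoke array lay below every sham array in HCR for Mlc1, Dlk1, Tent5b, Syndig1 and Mcf2l (5 of 10 genes, 4.28% of all genes). The same held in LCR for Pcp4l1, Prune2 and Mcf2l (3 of 10 genes, 8.55% of all genes). Mcf2l is in both of these sets. Because the choice rested on these contrasts, nothing is read from the shares. The interquartile range of an array's log2 values ran from 2.743 to 2.937 over HCR smoke arrays, against 2.941 to 3.037 over HCR sham arrays, and from 2.786 to 3.005 over LCR smoke arrays, against 2.965 to 3.038 over LCR sham arrays, so that the groups were apart in HCR and overlapped in LCR. With it as a covariate, the counts lower by at least 1 were 5 in HCR and 4 in LCR. Without the 6 arrays with high muscle markers, the counts lower by at least 1 were 8 in HCR and 6 in LCR.

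**Figure D1:**
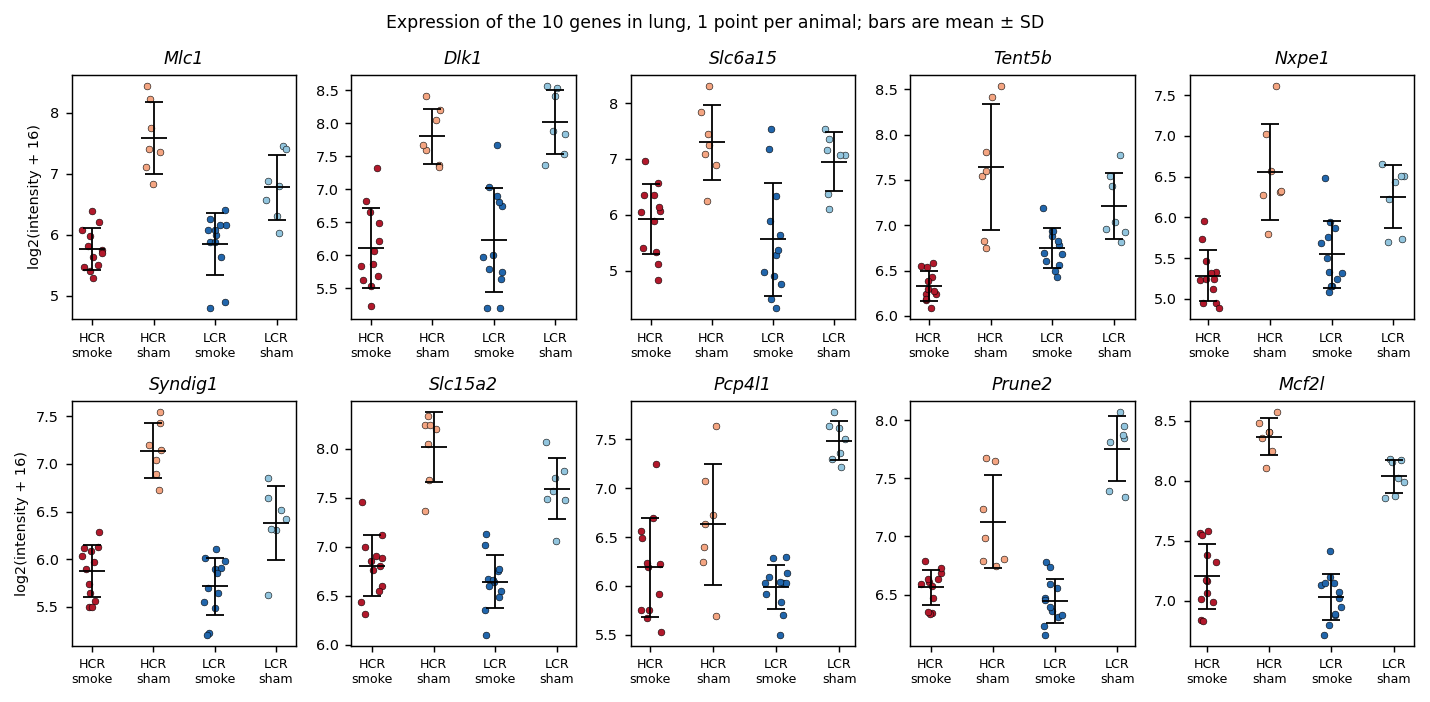
Log2(intensity + 16) of each of the 10 genes in HCR smoke (n = 12), HCR sham (n = 7), LCR smoke (n = 12) and LCR sham (n = 7) lungs, 1 point per animal, with black bars for the mean ± SD and a vertical axis of its own for each gene. Mcf2l smoke arrays lie below all sham arrays in both lines, while Pcp4l1 smoke and sham arrays overlap in HCR and are apart in LCR.

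Dlk1 had similar changes in both lines. Its intensity in HCR smoke lungs ran from 21.8 through a median of 46.6 to 144, against 146 through 188 to 324 in HCR sham lungs. In LCR smoke lungs it ran from 20.8 through 47.7 to 188, against 149 through 219 to 364 in LCR sham lungs. The HCR groups met without overlapping, and the LCR groups overlapped through 1 smoke animal. The log2 change was -1.69 ± 0.29 (SE) in HCR and -1.79 ± 0.29 in LCR, or 3.23-fold and 3.45-fold lower on this scale, the second most negative of all genes in each line. The change in LCR minus that in HCR was -0.10 ± 0.41.

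Dlk1 lies in an imprinted cluster, in which, as known from mouse and human, Dlk1 is expressed from the paternal allele and the noncoding RNA Meg3 from the maternal allele. In the RefSeq gene order of assembly GRCr8, Meg3 was the nearest measured gene after Dlk1 on chromosome 6, with 1 annotated gene between them. Meg3 fell by 0.92 ± 0.16 in HCR (limma, adjusted p = 2.28e-05) and by 1.08 ± 0.16 in LCR (limma, adjusted p = 1.37e-06). With the alveolar type 1 list mean as a covariate, the HCR fall of Meg3 was no longer called, at -0.65 with adjusted p = 0.0728. Meg3 was also the gene that varied most like Dlk1 between animals of the same group, with Pearson's r = 0.85 and Spearman's correlation 0.85 over the 38 arrays after group means were removed. Cdh22, a cadherin, came next at r = 0.75 and fell by 1.04 ± 0.20 in HCR and fell by 1.17 ± 0.20 in LCR (limma, adjusted p = 8.43e-05 and 1.25e-05). With the same covariate its HCR change was -0.51 (adjusted p = 0.237). The third was Map4k5, a kinase, at r = 0.61, with log2 changes of 0.08 and 0.003 that did not pass the test. These genes were picked as the most alike of all measured genes, so their r values carry no test.

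The Dlk1 promoter is shown because it was the only promoter of the set with a match to a searched motif. The window holds 250 bases before and 50 after the RefSeq start (GRCr8, chr6:134192347-134192646, plus strand), and the capitals mark the match to the aryl hydrocarbon receptor motif TNGCGTG, which starts 10 bases before the start site.
Dlk1: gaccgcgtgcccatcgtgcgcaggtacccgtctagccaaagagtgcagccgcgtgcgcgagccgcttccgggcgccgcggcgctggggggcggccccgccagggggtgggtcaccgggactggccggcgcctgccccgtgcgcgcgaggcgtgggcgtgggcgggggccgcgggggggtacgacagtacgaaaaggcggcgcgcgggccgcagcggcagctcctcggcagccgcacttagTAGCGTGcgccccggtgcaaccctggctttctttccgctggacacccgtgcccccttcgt
On both strands, TNGCGTG occurs in 5.121% of 27457 such rat promoters and in 7.424% of the 11733 that belong to measured genes. In the same order, the E-box CACGTG occurs in 6.65% and 8.915% and the antioxidant motif TGACNNNGC in 12.172% and 14.361%. The glucocorticoid receptor motif (GNACA and TGTNC with 3 bases between) occurs in 0.422% and 0.358%. None of these last 3 motifs was found in the windows of the 9 genes with a promoter entry, which did not include Slc6a15. A match is a description of letters and not of binding.

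For 9 of the genes a list of relatives was followed, and a listed gene is said to rise or fall where it passed limma's test over all genes at an adjusted p under 0.05. Of the Notch ligands, receptors and targets, 15 were measured. In HCR 4 rose and 8 fell, and in LCR 3 rose and 7 fell with smoke. Of all genes, 17.7% rose and 30.4% fell in HCR, and 22.7% rose and 27.9% fell in LCR. These shares are the background for every list of relatives below. Heyl, a Notch target, fell by 0.91 ± 0.12 in HCR and 0.34 ± 0.12 in LCR, and the receptor gene Notch1 fell by 0.38 ± 0.07 and 0.48 ± 0.07. Hey2, another target, fell by 0.78 ± 0.13 in LCR, with -0.19 ± 0.13 in HCR (limma, adjusted p = 0.22).

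Slc6a15, a sodium-coupled transporter of branched-chain and other neutral amino acids best known from brain, had the largest log2 SD of the 10 genes in both smoke groups. In HCR smoke lungs its intensity ran from 12.6 through 50.8 to 109, against 59.9 through 137 to 303 in HCR sham lungs. In LCR smoke lungs it ran from 4.02 through 24.1 to 169, against 52.5 through 119 to 170.5 in LCR sham lungs, so that the highest smoke animals reached the top of the sham range. The log2 change was -1.37 ± 0.36 in HCR and -1.40 ± 0.36 in LCR. The log2 SD was 1.02 in LCR smoke lungs and 0.53 in LCR sham lungs. The lowest LCR smoke value, 4.02, lay near the lowest of any probe set, 2.09, so this spread includes dim values. The genes most like Slc6a15 within groups were Qpct (r = 0.65), Moxd1 (r = 0.64) and Tlr4 (r = 0.62). Moxd1 rose with smoke, by 0.50 ± 0.19 in HCR and 1.29 ± 0.19 in LCR (limma, adjusted p = 0.0297 and 8.59e-07), the opposite direction to Slc6a15 between groups. Among 11 measured relatives of the SLC6 family, 3 rose and 3 fell in each line. Slc6a14, an amino acid transporter, rose by 0.76 ± 0.17 and 0.88 ± 0.17. Slc6a4, the serotonin transporter, fell by 0.54 ± 0.10 and 0.77 ± 0.10, and Slc6a9, a glycine transporter, fell by 0.32 ± 0.06 and 0.22 ± 0.06, each in HCR and LCR.

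Slc15a2, the proton-coupled peptide transporter known as PEPT2, is expressed by lung epithelium. Its intensity ran from 63.7 through 97.5 to 159 in HCR smoke lungs, against 149 through 278 to 306 in HCR sham lungs. It ran from 52.7 through 84.4 to 124 in LCR smoke lungs, against 117 through 173 to 253 in LCR sham lungs. In both lines only the edges of the groups overlapped. The change was -1.21 ± 0.14 in HCR and -0.95 ± 0.14 in LCR. Of its 9 measured relatives, other peptide transporters and peptidases, 2 rose in HCR and 6 in LCR, and the others did not pass the test. Slc15a3, a lysosomal peptide transporter, rose by 0.33 ± 0.08 in HCR and 0.53 ± 0.08 in LCR. Slc15a4, another lysosomal one, rose by 0.29 ± 0.08 in LCR and the dipeptidase gene Cndp2 by 0.43 ± 0.13. In HCR these stood at 0.18 ± 0.08 and 0.25 ± 0.13 (limma, adjusted p = 0.0571 and 0.112).

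The genes that varied most like Slc15a2 within groups were Npas2 (r = 0.70), Abhd14b (r = 0.68) and Bmal1 (r = 0.68). Npas2 and Bmal1 encode partner transcription factors of the circadian clock. Npas2 fell by 1.12 ± 0.22 in HCR and 1.26 ± 0.22 in LCR (limma, adjusted p = 8.58e-05 and 1.38e-05). Bmal1 fell by 0.72 ± 0.23 in HCR (adjusted p = 0.0112), with -0.47 ± 0.23 in LCR (adjusted p = 0.0875). In LCR Bmal1 passed with array weights (-0.55, adjusted p = 0.0316), with the heart muscle covariate (-0.59, adjusted p = 0.0276), with the club cell covariate (-0.65, adjusted p = 0.0205) and without LCR sham 0440 (-0.67, adjusted p = 0.014) or 0441 (-0.58, adjusted p = 0.0482), and over all alternatives adjusted p lay between 0.014 and 0.482. With the alveolar type 1 list mean as a covariate the HCR calls of both ended, at -0.82 for Npas2 (adjusted p = 0.0951) and -0.39 for Bmal1 (adjusted p = 0.475). The Bmal1 call in HCR also ended with the interquartile range covariate (-0.57, adjusted p = 0.189) and without the 6 arrays with high muscle markers (-0.62, adjusted p = 0.0704). The time of day at which lungs were taken is not stated in the labels. The Slc15a2 promoter is shown because clock factors are known to bind the E-box CACGTG, and these letters are not in this window (GRCr8, chr11:77519315-77519614, plus strand). Only 8.915% of the windows of measured genes hold these letters, so nothing is read from their absence, and binding was not tested.
Slc15a2: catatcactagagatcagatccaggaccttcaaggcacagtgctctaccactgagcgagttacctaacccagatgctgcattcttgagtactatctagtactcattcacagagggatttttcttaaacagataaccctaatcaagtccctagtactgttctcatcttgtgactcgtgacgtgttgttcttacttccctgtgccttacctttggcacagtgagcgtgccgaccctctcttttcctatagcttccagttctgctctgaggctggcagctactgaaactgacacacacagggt

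Mlc1, a membrane protein of astrocytes whose mutation in humans causes a leukoencephalopathy, had the most negative change of all genes in HCR. Its intensity ran from 23.1 through 36.7 to 67.9 in HCR smoke lungs, against 98.5 through 155 to 333 in HCR sham lungs, with a clear gap between the groups. It ran from 11.8 through 49.8 to 68.9 in LCR smoke lungs, against 49.1 through 95.9 to 159 in LCR sham lungs, which overlapped. The change was -1.82 ± 0.22 in HCR, 3.53-fold lower, and -0.93 ± 0.22 in LCR, 1.90-fold lower. Its log2 mean was 5.85 in LCR smoke and 5.77 in HCR smoke lungs, and 6.78 in LCR sham and 7.59 in HCR sham lungs. Of 9 partners and glial membrane genes, 3 rose and 2 fell in HCR, and 4 rose and 2 fell in LCR. Aqp4, the water channel of astrocyte endfeet, rose by 1.002 ± 0.15 and 0.87 ± 0.15, Gja1, a gap junction protein, by 0.51 ± 0.09 and 0.60 ± 0.09, while Cav1, which is also an alveolar type 1 marker, fell by 0.20 ± 0.04 and 0.25 ± 0.04. Within groups Mlc1 varied most like Pnpla2 (r = 0.70), Eif2ak3 (r = 0.64) and Crebrf (r = 0.59). Pnpla2, a triglyceride lipase, fell by 0.44 ± 0.08 in HCR (limma, adjusted p = 3.55e-05), with 0.07 ± 0.08 in LCR (adjusted p = 0.484).

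Syndig1 binds AMPA-type glutamate receptors at synapses. Its intensity ran from 29.3 through 45.1 to 62.2 in HCR smoke lungs, against 90.2 through 125 to 171 in HCR sham lungs. It ran from 21.0 through 38.9 to 52.7 in LCR smoke lungs, against 33.2 through 69.6 to 99.5 in LCR sham lungs. The change was -1.27 ± 0.14 in HCR and -0.67 ± 0.14 in LCR, and only the HCR groups were apart. Of 11 AMPA receptor genes and relatives, 5 rose and 2 fell in HCR and 3 rose and 1 fell in LCR, with changes of the 11 between -0.22 and 0.23. Within groups Syndig1 varied most like Kcne2 (r = 0.66), Ager (r = 0.64) and Adgrv1 (r = 0.62). Ager, which marks alveolar type 1 cells, fell by 0.39 ± 0.05 in HCR and 0.24 ± 0.05 in LCR (limma, adjusted p = 5.91e-07 and 0.000425). Adgrv1, an adhesion G protein-coupled receptor, fell by 0.83 ± 0.13 and 0.57 ± 0.13.

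Tent5b, formerly Fam46b, had the smallest change of the 10 genes in LCR, and its HCR groups were apart by the brighter of 2 probe sets. Its intensity ran from 51.8 through 61.8 to 80.1 in HCR smoke lungs, against 91.7 through 177 to 357 in HCR sham lungs. It ran from 70.4 through 90.8 to 131 in LCR smoke lungs, against 96.4 through 115 to 203 in LCR sham lungs. The change was -1.31 ± 0.17 in HCR and -0.46 ± 0.17 in LCR, and a second probe set gave -1.67 and -0.74. By that second probe set the HCR groups overlapped, with smoke lungs up to 96.5 and sham lungs from 81.2. The log2 SD was 0.17 in HCR smoke lungs and 0.70 in HCR sham lungs, and the HCR sham animals covered the wider range. Of 7 measured nucleotidyltransferase relatives, 3 rose in HCR and 2 in LCR, and the others did not pass the test. Tent5a rose by 0.57 ± 0.09 and 0.58 ± 0.09, and Tent2 by 0.25 ± 0.06 and 0.34 ± 0.06. Tent4b rose by 0.08 ± 0.03 in HCR, with 0.07 ± 0.03 in LCR (adjusted p = 0.111). Within groups Tent5b varied most like Klf15 (r = 0.77), Klf9 (r = 0.73) and C15h8orf58 (r = 0.71). Klf15 and Klf9 encode transcription factors known to be induced by glucocorticoids, and both fell with smoke. Klf15 fell by 0.76 ± 0.13 in HCR and 0.45 ± 0.13 in LCR (limma, adjusted p = 8.61e-06 and 0.00333), and Klf9 by 0.68 ± 0.09 and 0.43 ± 0.09 (adjusted p = 2.76e-07 and 0.00017). With the alveolar type 1 list mean as a covariate the Klf15 calls ended, at -0.37 in HCR (adjusted p = 0.153) and -0.20 in LCR (adjusted p = 0.27). With the arrays' interquartile range as a covariate the LCR call ended, at -0.33 (adjusted p = 0.055).

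Nxpe1 was dim. Its intensity ran from 13.6 through 21.9 to 46.2 in HCR smoke lungs, against 39.6 through 63.8 to 180.1 in HCR sham lungs. It ran from 18.03 through 26.9 to 73.4 in LCR smoke lungs, against 36.1 through 70.8 to 84.4 in LCR sham lungs, and both pairs of groups overlapped. The change was -1.27 ± 0.19 in HCR and -0.71 ± 0.19 in LCR. With a pseudocount of 1 in place of 16 the HCR change was -1.73, and with 64 it was -0.72. Of 6 measured relatives, 2 rose and 1 fell in HCR, and 1 rose and 2 fell in LCR. Nxpe4 rose by 0.62 ± 0.11 and 0.89 ± 0.11, Nxpe3 fell by 0.34 ± 0.06 and 0.43 ± 0.06, and Nxph3, a neurexophilin, fell by 0.18 ± 0.06 in LCR with -0.06 ± 0.06 in HCR (adjusted p = 0.433). Nxpe2, which lies next to Nxpe1, changed by -0.01 ± 0.11 and 0.10 ± 0.11 and did not pass in either line. Within groups Nxpe1 varied most like Sdr16c5 (r = 0.56), Phlda3 (r = 0.56) and Cyp26b1 (r = 0.55). Cyp26b1, which breaks down retinoic acid, fell by 1.09 ± 0.18 in HCR and fell by 1.78 ± 0.18 in LCR (limma, adjusted p = 8.97e-06 and 7.75e-10).

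Mcf2l, a DBL-family guanine nucleotide exchange factor, had the smallest SE of the 10 genes. Its intensity ran from 97.5 through 128 to 175 in HCR smoke lungs, against 260.1 through 323 to 365 in HCR sham lungs. It ran from 89.2 through 116 to 155 in LCR smoke lungs, against 216 through 244 to 274 in LCR sham lungs, so that all smoke arrays were below all sham arrays in each line. The change was -1.17 ± 0.10 in HCR and -1.01 ± 0.10 in LCR. A dimmer probe set gave -0.68 and -0.45. Within groups Mcf2l varied most like Parp6 (r = 0.77), Clic3 (r = 0.73) and Map7d1 (r = 0.72). Clic3, a chloride intracellular channel protein, fell by 0.74 ± 0.09 in HCR and 0.45 ± 0.09 in LCR (limma, adjusted p = 6.0e-08 and 8.04e-05). With the alveolar type 1 covariate the LCR call of Clic3 ended, at -0.16 (adjusted p = 0.0974).

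Prune2 and Pcp4l1 had the opposite pattern to Mlc1 and Tent5b, with larger changes in LCR. Prune2 intensity ran from 64.3 through 81.0 to 94.5 in HCR smoke lungs, against 91.5 through 111 to 188 in HCR sham lungs. It ran from 55.3 through 69.7 to 93.6 in LCR smoke lungs, against 146 through 214 to 253 in LCR sham lungs. The groups overlapped at their edges in HCR and were apart in LCR. The change was -0.57 ± 0.11 in HCR and -1.31 ± 0.11 in LCR, and the other 2 probe sets gave -0.52 and -0.29 in HCR and -1.21 and -0.81 in LCR. By the dimmest probe set the LCR groups overlapped, with smoke lungs up to 46.2 and sham lungs from 43.2. Pcp4l1 intensity ran from 30.1 through 57.9 to 136 in HCR smoke lungs, against 35.7 through 83.3 to 183 in HCR sham lungs. It ran from 29.4 through 49.4 to 62.6 in LCR smoke lungs, against 133 through 165 to 203 in LCR sham lungs. The HCR groups covered nearly the same range, and in LCR the lowest sham animal was above all smoke animals. The change was -0.44 ± 0.19 in HCR and -1.49 ± 0.19 in LCR, and a second probe set gave -0.57 and -1.53.

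Of 6 relatives of Prune2, 3 fell in HCR and 1 in LCR, and the others did not pass the test. Bnip2 fell by 0.16 ± 0.05 in HCR and 0.25 ± 0.05 in LCR. Prune1 and Bnip1 fell by 0.22 ± 0.05 and 0.17 ± 0.06 in HCR, with -0.01 ± 0.05 and -0.09 ± 0.06 in LCR (adjusted p = 0.873 and 0.242). Of 7 PCP4 and calmodulin genes, 1 rose and 3 fell in HCR and 2 rose and 2 fell in LCR. Pcp4 itself rose by 0.34 ± 0.12 and 0.44 ± 0.12, while Camk2g, a calmodulin-dependent kinase subunit, fell by 0.29 ± 0.09 and 0.43 ± 0.09. With the mean of its probe sets Camk2g stood at 0.02 in HCR, above 0. Within groups Prune2 varied most like Dnm1 (r = 0.76), Sh3glb2 (r = 0.67) and Slc25a23 (r = 0.65), and Pcp4l1 most like Kcnma1 (r = 0.83), Cabcoco1 (r = 0.82) and Efhc2 (r = 0.82). Kcnma1, the large-conductance potassium channel of smooth muscle, fell by 0.79 ± 0.25 in LCR (limma, adjusted p = 0.00785), with -0.0004 ± 0.25 in HCR (adjusted p = 0.999). With the smooth muscle and pericyte covariate Kcnma1 stood at 0.17 in LCR (adjusted p = 0.262), and with the club cell covariate it fell by 0.40 in HCR (adjusted p = 0.00898). Dnm1, a dynamin, fell by 0.37 ± 0.07 in LCR (adjusted p = 4.39e-05), with -0.12 ± 0.07 in HCR (adjusted p = 0.167).

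The difference of the smoke change between lines, LCR minus HCR, was not tested because the genes were chosen from these contrasts. It was 0.89 ± 0.31 for Mlc1, 0.85 ± 0.24 for Tent5b, 0.60 ± 0.20 for Syndig1 and 0.56 ± 0.27 for Nxpe1, whose changes were smaller in LCR. It was -0.74 ± 0.16 for Prune2 and -1.05 ± 0.27 for Pcp4l1, whose changes were larger in LCR. It was -0.10 ± 0.41 for Dlk1, -0.02 ± 0.50 for Slc6a15, 0.26 ± 0.20 for Slc15a2 and 0.16 ± 0.14 for Mcf2l.

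The same quantity is the line difference under smoke minus that under sham. Under sham, LCR minus HCR was -0.76 ± 0.16 for Syndig1 (limma, adjusted p = 0.00468), 0.63 ± 0.13 for Prune2 (adjusted p = 0.00407) and 0.86 ± 0.22 for Pcp4l1 (adjusted p = 0.0176). These 3 of 10 genes were called, 1 lower and 2 higher in LCR, against 3.73% of all genes, 2.34% lower and 1.39% higher. The sham and smoke arrays both set the smoke changes by which the genes were chosen, so the p-values between lines, under sham and under smoke, are not independent of that choice, and nothing is read from the shares. Mlc1 stood at -0.81 ± 0.25 (adjusted p = 0.0609) and Mcf2l at -0.33 ± 0.11 (adjusted p = 0.0777), neither passing the threshold of 0.05. The other 5 genes had adjusted p between 0.137 and 0.804. The Pcp4l1 call ended without HCR sham 0436, the lowest HCR sham animal (0.70, adjusted p = 0.0615), and without HCR sham 0434 (0.79, adjusted p = 0.0519). Pcp4l1 and Prune2 were not called when only the groups compared were fitted (adjusted p = 0.0758 and 0.0833). Over all alternatives adjusted p lay between 0.00101 and 0.0758 for Pcp4l1, between 0.00027 and 0.0833 for Prune2 and between 0.00118 and 0.0417 for Syndig1. In the same comparison 6 of 10 T and NK cell markers were higher in LCR sham lungs, and their part in the result was not tested.

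Under smoke, 0 of the 10 genes were called between lines by limma, against 6.32% of all genes, and 2 had an unadjusted p under 0.05, against 24.2% of all genes. Tent5b was higher in LCR smoke than in HCR smoke lungs by 0.42 ± 0.15 (adjusted p = 0.0705). It passed without HCR sham 0433 or 0434 (adjusted p = 0.0466 and 0.047), when only the groups compared were fitted (adjusted p = 0.00197) and with array weights (adjusted p = 0.0251), and over all alternatives adjusted p lay between 0.00197 and 0.335. Mcf2l differed by -0.17 ± 0.08 (adjusted p = 0.195), and passed with the alveolar type 1 covariate (-0.29, adjusted p = 0.0159). The 95% interval was -0.30 to 0.47 for Mlc1, -0.53 to 0.14 for Pcp4l1 and -0.32 to 0.08 for Prune2. Intervals were widest for Slc6a15, at -0.99 to 0.25.

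**Figure D2:**
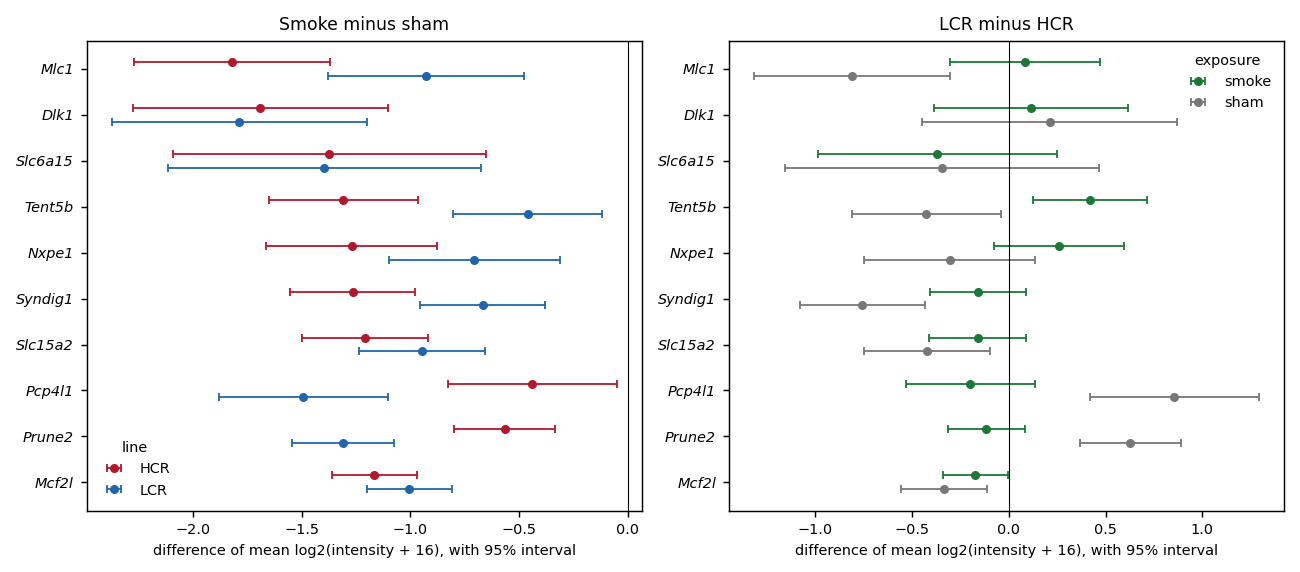
Differences of mean log2(intensity + 16) with 95% intervals for each gene, on the left smoke minus sham in HCR and LCR, and on the right LCR minus HCR under smoke and under sham. Mlc1 has -1.82 in HCR and -0.93 in LCR, Pcp4l1 has -0.44 and -1.49, and on the right Syndig1, Prune2 and Pcp4l1 lie at -0.16, -0.12 and -0.20 under smoke and at -0.76, 0.63 and 0.86 under sham.

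Variation between animals of the same group was not used to choose the genes. Group means were removed and Pearson's r was tested over the 38 arrays by permutation within groups, for all 45 pairs. Prune2 and Pcp4l1 varied together, with r = 0.60 (permutation test, adjusted p = 0.00405) and a Spearman correlation of 0.67 (permutation test, adjusted p = 0.0009). The r was 0.53 in HCR smoke, 0.76 in HCR sham, 0.69 in LCR smoke and 0.65 in LCR sham lungs. It was 0.49 without the 2 arrays farthest from the median, and 0.61 without the 6 arrays with high muscle markers, where the adjusted p was 0.138. An r at least as high was found with Pcp4l1 for 2.95% of other genes and with Prune2 for 0.091%. Prune2 with Pcp4l1 was the only pair of 45 called. The next by r were Dlk1 with Syndig1 (r = 0.40, permutation test, adjusted p = 0.181), Slc6a15 with Slc15a2 (r = 0.39, adjusted p = 0.181) and Tent5b with Mcf2l (r = 0.38, adjusted p = 0.0634). Of the pairs, 33 were above 0, with a median r of 0.15. As background, an average of 54.98% of all other genes had r above 0 with a member, with a median r of 0.027. The promoter windows of the pair are shown because their levels varied together, and neither holds a searched motif. They lie at GRCr8 chr1:223779520-223779819, plus strand, and chr13:86144850-86145149, minus strand.
Prune2: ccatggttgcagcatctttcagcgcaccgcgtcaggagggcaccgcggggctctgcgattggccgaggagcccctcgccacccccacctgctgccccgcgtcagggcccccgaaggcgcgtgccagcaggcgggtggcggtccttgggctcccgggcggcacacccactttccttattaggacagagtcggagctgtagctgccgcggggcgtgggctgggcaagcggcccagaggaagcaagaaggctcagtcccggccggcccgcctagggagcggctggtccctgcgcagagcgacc
Pcp4l1: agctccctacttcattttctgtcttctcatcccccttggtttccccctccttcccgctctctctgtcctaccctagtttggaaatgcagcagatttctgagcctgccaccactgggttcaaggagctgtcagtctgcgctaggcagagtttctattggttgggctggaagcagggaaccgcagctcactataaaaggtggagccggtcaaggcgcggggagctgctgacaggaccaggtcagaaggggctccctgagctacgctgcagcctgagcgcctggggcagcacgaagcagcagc

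**Figure D3:**
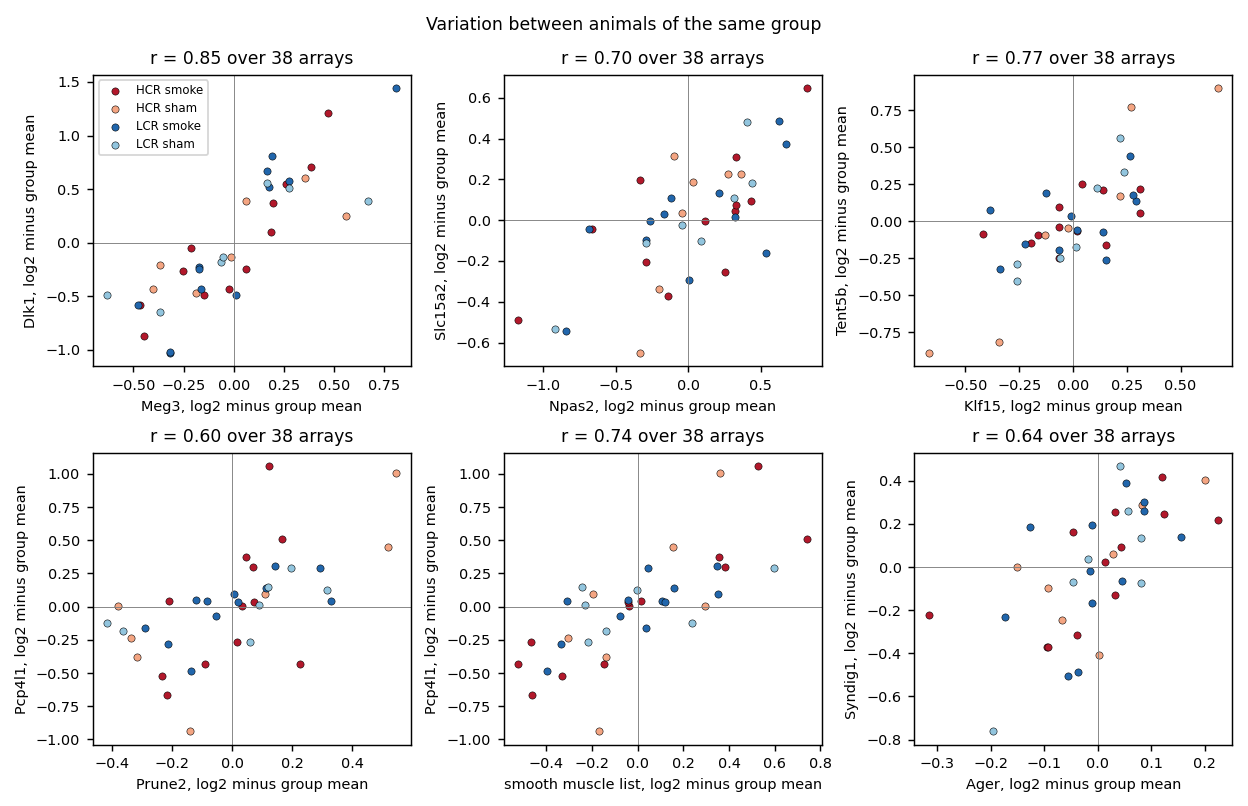
Each panel plots log2(intensity + 16) of a gene against that of another gene, or the mean of the smooth muscle marker list, after the group mean was removed, with 1 point per animal and colours for the 4 groups. Dlk1 was higher in animals with higher Meg3 (r = 0.85 over all arrays), and the other panels have r between 0.60 and 0.77.

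Each gene was also set against 20 cell type marker lists, Cyp1a1 and 2 array measures in the same way, 230 relations in all, of which 14 were called. Pcp4l1 had 9 of the 14. Its r was 0.74 with smooth muscle and pericyte markers (permutation test, adjusted p = 0.000767) and the Spearman correlation 0.77, with r = 0.74 without the 2 farthest arrays, and by group 0.89 in HCR smoke, 0.71 in HCR sham, 0.74 in LCR smoke and 0.49 in LCR sham lungs. It was 0.72 with club cell markers and 0.72 with ciliated cell markers. Pcp4l1 was also related to neuroendocrine (0.60), B cell (0.56), nerve and glia (0.54) and heart muscle markers (0.53), and in the other direction to alveolar type 2 (-0.55) and mast cell markers (-0.52). Without the 6 arrays with high muscle markers 4 relations were called, all of Pcp4l1: smooth muscle and pericyte (0.66), club cell (0.68), ciliated cell (0.61) and mast cell markers (-0.63). By Spearman's correlation the relations of Pcp4l1 with mast cell and of Mcf2l with mesothelial markers were not called (permutation test, adjusted p = 0.0606 and 0.124).

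The smooth muscle and pericyte list itself moved with smoke in LCR. Its mean, set against the mean of all arrays, ran from -0.69 to 0.06 in LCR smoke and from 0.10 to 0.94 in LCR sham lungs, and from -0.49 to 0.78 in HCR smoke and -0.20 to 0.46 in HCR sham lungs. In LCR 9 of its 12 genes fell, against 27.9% of all genes, and 5 of 12 did in HCR, against 30.4% of all genes. The club cell list had 4 of 6 genes lower and 1 higher in LCR, and 2 higher in HCR. Of all genes, 22.7% were higher in LCR and 17.7% in HCR. With the smooth muscle list mean as a covariate the LCR change of Pcp4l1 was -0.89, against -1.49 without it, and the line difference of the change was -0.51, against -1.05. With the club cell list mean the line difference was -0.52. No marker was at 0, as the lowest intensity of any probe set was 2.09.

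Alveolar type 1 markers were related to Syndig1 (r = 0.58, permutation test, adjusted p = 0.0115), Mcf2l (0.57, adjusted p = 0.0115) and Tent5b (0.53, adjusted p = 0.0248). The Spearman correlations were 0.59, 0.49 and 0.55, and r without the 2 farthest arrays was 0.50, 0.48 and 0.59. Without the 6 arrays with high muscle markers r was 0.50, 0.45 and 0.55, with adjusted p of 0.126, 0.206 and 0.0606. Alveolar type 1 cells form the thin gas exchange surface of the lung. Of all genes, 30.4% fell with smoke in HCR and 27.9% in LCR. The alveolar type 1 list fell in 8 of 9 genes in HCR and in 7 of 9 in LCR, where 1 rose. Its mean ran from -0.48 to 0.04 in HCR smoke and from 0.02 to 0.32 in HCR sham lungs, and from -0.21 to 0.05 in LCR smoke and -0.06 to 0.28 in LCR sham lungs. With this mean as a covariate the Syndig1 change was -0.69 in HCR and -0.31 in LCR, the Tent5b change in HCR was -0.68, and the Slc6a15 change in HCR was -0.52. The changes of Mcf2l were -0.78 and -0.76. Those of Pcp4l1 and Prune2 in HCR were larger, at -0.90 and -0.92. The counts lower by at least 1 were then 3 of 10 in each line. Endothelial markers fell in 8 of 10 genes in HCR and 9 of 10 in LCR, and r of the 10 genes with them lay between -0.20 and 0.41, none called and 1 with an unadjusted p under 0.05. Mcf2l with mesothelial markers (0.52) and Syndig1 with T and NK cell markers (-0.49) were the other relations called. With Cyp1a1 r lay between -0.23 and 0.32, none called and 0 with an unadjusted p under 0.05.

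**Figure D4:**
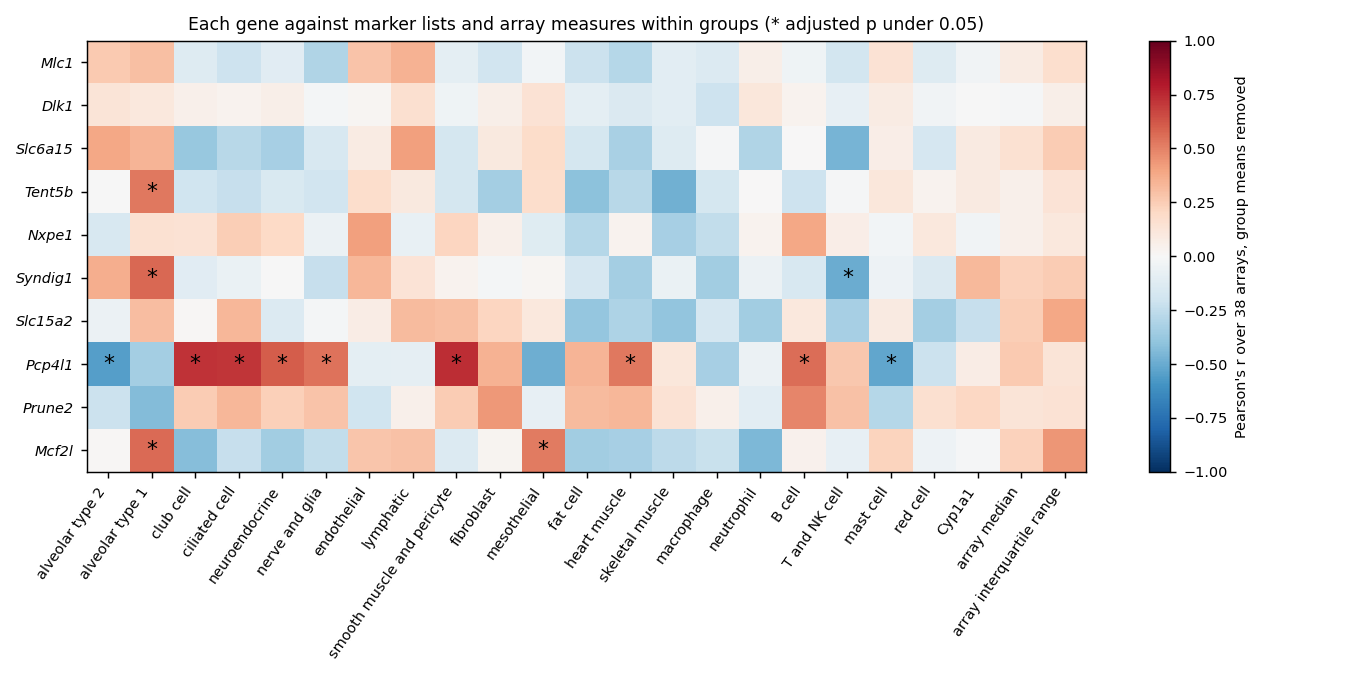
Heat map of Pearson's r between each of the 10 genes (rows) and each marker list, Cyp1a1 or array measure (columns) over 38 arrays after group means were removed, from blue (-1) to red (1), with asterisks for an adjusted permutation p under 0.05. The Pcp4l1 row holds 9 of the 14 asterisks, and the alveolar type 1 column holds 3, at Tent5b, Syndig1 and Mcf2l.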

How the data were processed

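Lung RNA of 38 rats was measured with 1 array per animal. The authors deposited linear intensity values for 31099 probe sets, from 2.09 to 11558, per the file headers and values. The summarisation and normalization software was not given in the sources used here. Values were analysed as log2(intensity + 16), with the brightest probe set per gene among the 20826 with 1 symbol, which gave 14217 genes. Per the labels the animals were separate. Array correlations were at least 0.962.

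The 4 group means were estimated together from all arrays in limma 3.58.1 in R 4.3.3 (lmFit and eBayes, two-sided, Benjamini-Hochberg over all genes, threshold 0.05). Within-group correlations were tested with 100000 permutations within groups (NumPy 2.4.6, two-sided), adjusted over pairs or relations. Both were tested on simulated data. Figures used matplotlib 3.10.9.

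The genes and lists were chosen with earlier results of these data known. Named genes were the 10, the 3 most alike per gene by r, up to 3 passing genes per list of relatives by adjusted p, and Sftpc, Scgb1a1, Ager and Cyp1a1. The relatives of Mcf2l are not reported here. Pim3 and Nxpe2 were chosen after their values were seen. Alternatives were other normalizations, pseudocounts, filters, probe set rules, fits and covariates, and each array left out. The fits with smooth muscle, club cell or alveolar type 1 covariates or without 6 arrays were chosen after seeing the data. Gene order and promoters are from RefSeq, assembly GRCr8.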

Additional observations from a re-analysis of the deposited data

How the results depend on the processing

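All 1060 alternative values of the smoke changes of the 10 genes were below 0. The genes were chosen for low levels with smoke in these same arrays, so nothing is read from this count. The number of arrays limits the precision, and a larger pseudocount shrinks the changes of dim genes. Genes lower with smoke by at least 1 on the log2 scale numbered 2 in HCR and 2 in LCR with a pseudocount of 64, 5 in HCR with the interquartile range as a covariate, and 3 in each line with the alveolar type 1 covariate. Genes called between lines under sham numbered 5 with median-centred arrays, a pseudocount of 64, array weights or the interquartile range covariate, against 3, and 2 to 4 with single arrays left out. Under smoke 1 was called when only the groups compared were fitted, with array weights or with the alveolar type 1 covariate, against 0, and 0 to 1 with single arrays left out. Of all genes, 1610 fell in HCR with the interquartile range covariate and 1364 with the alveolar type 1 covariate. In the main fit 4317 fell in HCR and 3968 in LCR. Testing every probe set gave 6947 in HCR and 7130 in LCR, which count probe sets and not genes. Pairs that varied together numbered 2 with the mean of probe sets, and 0 in sham arrays alone or without the 6 arrays. Relations with lists numbered 1 in sham arrays alone and 4 without the 6 arrays, against 14. Both settings held fewer samples, and the second also lacked the arrays with high muscle markers. The reason for the lower counts was not tested. Camk2g in HCR turned to 0.017 with the mean of probe sets and 0.084 with the alveolar type 1 covariate. With that covariate Crebrf and C15h8orf58 in HCR turned to 0.033 and 0.078, and with the smooth muscle covariate Kcnma1 and Scgb1a1 in LCR turned to 0.17 and 0.000476. The cause was not tested. No paired analysis was made, because the numbers in the sample titles do not overlap between groups and so pair no animals.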

Other observations

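The nearest measured gene on either side of each of the 10 genes, by RefSeq order, gave 20 neighbours, of which 5 fell in HCR and 3 fell and 5 rose in LCR (limma), against 30.4% of all genes lower in HCR and, in LCR, 27.9% lower and 22.7% higher. Their median change was -0.01 in HCR and -0.003 in LCR. Meg3 beside Dlk1 was the only neighbour lower by at least 0.5 in each line. The neighbours Mov10l1, LOC102555774, Alx1, Cst5, Nr1i3 and F10 were dim, with group means between 4.26 and 4.56 on the log2 scale. Genes this dim could hardly show a fall, so nothing is read from the median or from Meg3 standing alone among the neighbours. Pim3, a kinase gene before Mlc1, fell by 0.46 ± 0.10 in HCR and 0.35 ± 0.10 in LCR (limma, adjusted p = 0.000218 and 0.00361).

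The genes most alike within groups did not all share the smoke change. Of the 30, 20 fell and 1 rose in HCR and 18 fell and 2 rose in LCR, with median changes of -0.27 and -0.26, against 30.4% of all genes lower and 17.7% higher in HCR and 27.9% lower and 22.7% higher in LCR.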
